A study of Mus musculus with 4 samples.

Results

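The genes described here are 38 genes of serine and amino acid synthesis, of the ATF4 response and of the unfolded protein response, out of 16857 genes in the deposited table. They were chosen by gene symbol from a list drawn up by role, with earlier results of these data known. A set of 18 makes up the ATF4 and amino acid synthesis genes, and a set of 20 the chaperone, XBP1 and degradation genes of the endoplasmic reticulum (ER). All 38 had a row, and all 38 passed the filter on low values.

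RNA was sequenced from mouse adenoma colonoid lines, that is, tumour-derived colon organoids kept as cultures, with 1 library per line. The G2 lines, numbered 157 and 236, carried the genotype Apcnull/LSL-mTERT-homo. The G0 lines, numbered 75 and 179, carried Apcnull/LSL-mTERT-het. All 4 lines were named Apcmin and labelled as Apc-null, so the loss of Apc is shared by both groups. The series sets lines of high against lines of low chromosomal instability, but no label ties either term to G2 or G0. Each line is a separate culture, and nothing in the labels says that each came from a separate animal, so the p-values speak only of the scatter among these cultures.

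ATF4 is a transcription factor whose translation rises when the initiation factor eIF2 is phosphorylated, as happens when amino acids run short or proteins misfold in the ER. It switches on genes for making, importing and charging amino acids, among them those that turn a glycolytic intermediate into serine. The unfolded protein response starts from the sensors IRE1, PERK and ATF6 in the ER membrane, and IRE1 splices the Xbp1 message into the form that encodes an active factor. In the intestine this response is known for its part in secretory cells and in inflammation.

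Library totals lay between 16545429 and 17901744 recovered counts. Tert, the telomerase gene named in the genotype, had 0.0 and 1.0 normalized counts in the G2 lines, against 93.3 and 97.5 in the G0 lines (limma adjusted p = 0.00128). Of 10 colon epithelium markers, Epcam and the keratins were abundant in all 4 lines, while Cdx2, Vil1 and Cdh17 fell and Cdh1 and Car1 rose in G2. Cdx2 stood at 270.3 and 186.7 normalized counts in the G2 lines, against 2395 and 3199 in the G0 lines. The summed level of 10 goblet cell markers was 102.6 to 274.3 in the G2 lines and 131.6 to 166.6 in the G0 lines, with Atoh1 at 0 throughout. Of the 6 goblet cell markers tested, Clca1 rose, at 67.6 and 26.4 in the G2 lines against 2.0 and 1.0 in the G0 lines (adjusted p = 0.00911). Fcgbp fell, at 38.3 and 45.0 in the G2 lines against 95.2 and 137.1 in the G0 lines (adjusted p = 0.0338), and the other 4 did not pass, Muc2 and Retnlb being lower and Ccl6 higher in G2 and Zg16 overlapping. The summed level of 7 fibroblast markers was 10.1 and 10.8 in the G2 lines and 4.9 and 6.1 in the G0 lines, with Pdgfra and Dcn at 0 throughout, while Col3a1 rose, at 7.1 and 6.8 in the G2 lines against 0.0 in both G0 lines. The 5 macrophage markers with a row summed to 3280 and 4118 in the G2 lines and 2121 and 3341 in the G0 lines. Ptprc, which marks all leukocytes, was at 0 in all 4 lines, while Cd14 rose, at 2106 and 2197 in the G2 lines against 990.7 and 1230 in the G0 lines, and Csf1r rose, at 16.1 and 4.9 in the G2 lines against 0.0 in both G0 lines. The 5 plasma and B cell markers with a row, nearly all of it Sdc1, summed to 6335 and 6488 in the G2 lines and 8367 and 9318 in the G0 lines. The 3 endothelial markers with a row summed to 48.4 and 46.9 in the G2 lines and 3.9 and 4.1 in the G0 lines, nearly all of it Tek, which rose (adjusted p = 0.00587). The part of these markers in the results below was not tested. The Y-linked gene Eif2s3y, chosen after its values were seen, had 421.6 and 427.2 normalized counts in the G2 lines and 0.0 in both G0 lines. The presence of Y transcripts and the group therefore cannot be told apart in any result below.

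Enzymes that make serine, glycine, a proline precursor and asparagine, 5 in all, fell in the G2 lines, while Atf4 itself and most other ATF4 targets did not pass the test. Of the 18 ATF4 and amino acid synthesis genes, 5 fell and 0 rose at an adjusted p under 0.05. They were Asns, Psat1, Phgdh, Shmt2 and Aldh18a1, and each was 1.71-fold to 2.22-fold lower in G2. Over all 13981 genes tested, 10.5% passed in either direction, 4.56% fell and 5.93% rose. The share of these 18 genes that fell was 27.8%. Their median log2 fold change, G2 over G0, was -0.28, against 0.01 over all genes tested. This median depended on the G0 lines: it was -0.61 without G0 replicate 1 and -0.10 without G0 replicate 2. All values are normalized counts, in which libraries of different size are put on one scale, and all tests are limma, with p-values adjusted by Benjamini-Hochberg across every tested gene.

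Serine is made from phosphoglycerate by Phgdh, Psat1 and Psph, acting in that order. Phgdh, the dehydrogenase of the entry step, on chromosome 3 from 98313171 to 98339969, had 1522 and 2024 normalized counts in the G2 lines, against 2787 and 3487 in the G0 lines. It fell 1.77-fold (log2 fold change -0.83, SE 0.19, adjusted p = 0.0365), but missed the threshold without the filter on low values (0.0662) and with upper quartile scaling (0.0515). Psat1, the aminotransferase of the middle step, on chromosome 19 from 15905123 to 15925059, had 1585 and 1484 in the G2 lines, against 3150 and 2994 in the G0 lines (log2 fold change -1.0, SE 0.13, adjusted p = 0.00522). The groups did not overlap for either gene, and the pair of lines in each group lay closer together for Psat1 than for Phgdh. Psph, the phosphatase of the last step, had 139.2 and 189.6 normalized counts in the G2 lines and 152.2 and 263.1 in the G0 lines, so that the groups overlapped. Its log2 fold change was -0.30 with a 95% interval of -1.05 to 0.45, a range that holds changes as large as those of the other 2 enzymes. Exons of Psph overlap those of Cct6a on the opposite strand, and no source used here gives the strand setting of the counting, so their reads may be mixed.

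Of the mitochondrial enzymes that pass the carbon of serine to folate, Shmt2 fell and Mthfd2 did not pass the test. Shmt2, which converts serine to glycine in mitochondria, on chromosome 10 from 127517123 to 127522444, had 3379 and 3144 normalized counts in the G2 lines, against 5434 and 5716 in the G0 lines. It fell 1.71-fold (log2 fold change -0.77, SE 0.13, adjusted p = 0.0131). Shmt2 shares exon positions with Ndufa4l2 on the opposite strand. Mthfd2, the next mitochondrial folate enzyme, had 356.0 and 231.7 in the G2 lines and 549.9 and 467.3 in the G0 lines. The groups did not overlap, but Mthfd2 did not pass the test (log2 fold change -0.82, adjusted p = 0.0793).

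Proline synthesis gave values in opposite directions for its enzymes. Aldh18a1, which makes the glutamate semialdehyde from which proline and ornithine derive, on chromosome 19 from 40550257 to 40588463, had 1204 and 1233 normalized counts in the G2 lines. It had 1963 and 2291 in the G0 lines and fell 1.75-fold (log2 fold change -0.80, SE 0.14, adjusted p = 0.0154). Pycr1, the mitochondrial reductase of the last step, had 330.8 and 326.5 in the G2 lines and 150.2 and 212.3 in the G0 lines. Pycr1 was 1.81 times as high in G2, with no overlap, and missed the threshold (log2 fold change 0.88, adjusted p = 0.0570). It passed under 4 of the 10 other settings that kept all 4 libraries. The 4 include a fit with the replicate number as a second term, which is not known to pair the lines.

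Asns, which makes asparagine and is a classic target of ATF4, had the smallest p of all 38 genes. It lies on chromosome 6 from 7675165 to 7693209. It had 1336 and 1433 normalized counts in the G2 lines, against 2847 and 3312 in the G0 lines. The fall was 2.22-fold (log2 fold change -1.15, SE 0.14, adjusted p = 0.0043). Leaving out any 1 library kept the ratio of the group means, G2 over G0, between 0.418 and 0.486 for Asns and between 0.483 and 0.516 for Psat1. With 1 library left out, limma called 0 to 2 of all genes tested, so that a count of 0 there says little of these genes. For Phgdh, Shmt2 and Aldh18a1 the ratio stayed between 0.485 and 0.645, 0.564 and 0.606, and 0.532 and 0.621. In the limma fit of all 4 libraries, 9 of the 18 genes had an unadjusted p under 0.05, 7 lower and 2 higher in G2. Of all 13981 genes tested, 3743 had such a p. With all 4 libraries but no intensity trend in the fit, limma called 0 of the 18, with a smallest adjusted p of 0.0537.

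**Figure D1:**
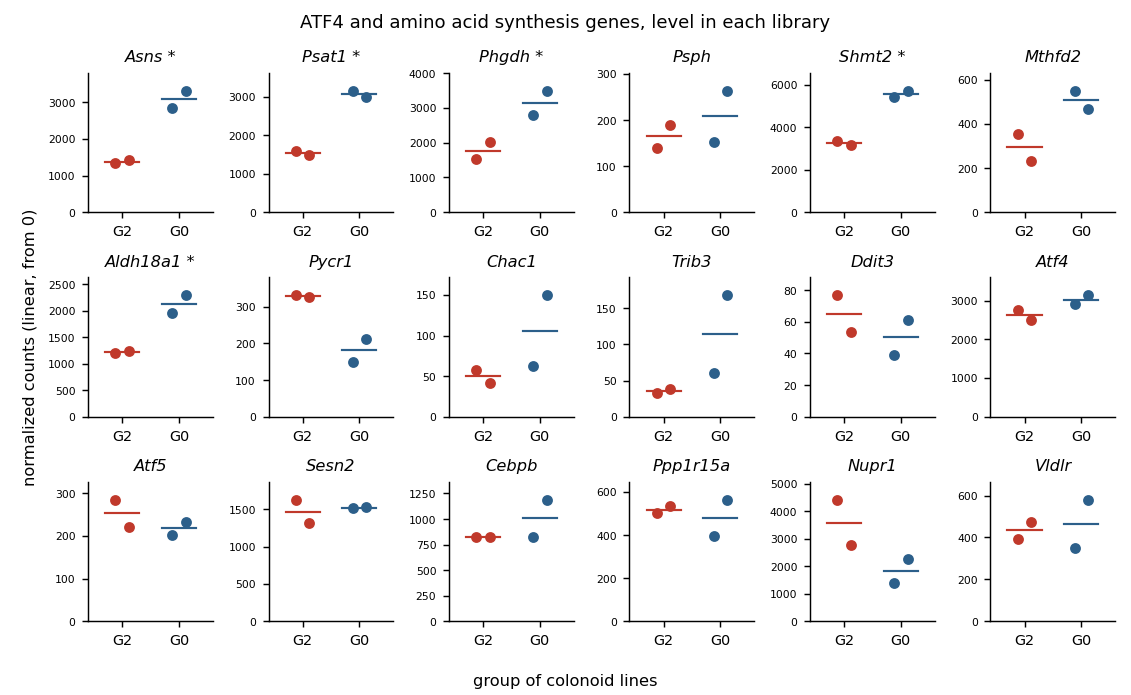
Normalized counts (vertical axis, linear and from 0) of the 18 ATF4 and amino acid synthesis genes in the G2 lines (red, left) and the G0 lines (blue, right); each point is 1 library, the bar is the mean of 2, and an asterisk marks an adjusted p under 0.05. Both G2 points lie below both G0 points for 9 genes (Asns, Psat1, Phgdh, Shmt2, Mthfd2, Aldh18a1, Chac1, Trib3 and Atf4), and both lie above for Pycr1 and Nupr1. These are 50% and 11.1% of the 18 genes, against 28.6% and 29.2% of all genes tested.

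The transcription factors of the response showed no common direction. Atf4, on chromosome 15 from 80255184 to 80257545, had 2762 and 2501 normalized counts in the G2 lines and 2914 and 3131 in the G0 lines (log2 fold change -0.20, 95% interval -0.51 to 0.11, adjusted p = 0.371). The G2 values lay just below the G0 values, by less than the test could call. The level of Atf4 message does not measure its protein, since the gene is controlled mainly at translation. Atf5, a related factor under the same translational control, had 284.4 and 221.9 in the G2 lines and 203.3 and 233.6 in the G0 lines. Ddit3, which encodes CHOP, a factor of prolonged ER stress, was low, at 76.6 and 53.8 in the G2 lines and 39.3 and 60.9 in the G0 lines. The groups overlapped for Atf5 and Ddit3, and both genes share exon positions with genes on the opposite strand, Ddit3 with Mars and Atf5 with Nup62. Cebpb, a partner of ATF4 at its binding sites, had 828.0 and 823.0 in the G2 lines and 824.8 and 1186 in the G0 lines. Nupr1, a small chromatin-associated stress protein, had 4412 and 2770 in the G2 lines and 1408 and 2259 in the G0 lines. Its groups did not overlap, with a ratio of 1.96 in favour of G2, but the spread within each pair was wide and it did not pass (adjusted p = 0.0781).

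Of the feedback and effector targets of ATF4, Trib3 and Chac1 were low and uneven between the G0 lines. Trib3, a pseudokinase that restrains ATF4, had 32.3 and 38.1 normalized counts in the G2 lines and 60.9 and 167.6 in the G0 lines. Its log2 fold change of -1.50 was the lowest of the 38 genes, with a 95% interval of -2.66 to -0.34 and an adjusted p of 0.103. The fold rested on G0 replicate 2: without it the ratio of G2 to G0 was 0.578, against 0.308 with all libraries. Chac1, which degrades glutathione, had 57.5 and 42.0 in the G2 lines and 61.9 and 149.3 in the G0 lines (adjusted p = 0.229), and again G0 replicate 2 stood apart. Without G0 replicate 2 the ratio for Chac1 was 0.804, against 0.471 with all libraries. Sesn2, a leucine sensor that restrains mTORC1, Ppp1r15a, which brings the phosphatase that reverses eIF2 phosphorylation, and Vldlr, a lipoprotein receptor, overlapped between groups and had log2 fold changes of -0.06, 0.13 and -0.06.

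Promoter sequence is shown because ATF4 is known to bind, with C/EBP factors, a composite element with the letters TGATGNAA, which some of these genes hold near their start and others do not. RefSeq windows of GRCm38.p6, from 250 bases before to 50 bases after the annotated start, were held for all 18 genes and for 17 of the 20 ER genes. The letters were searched on both strands and were found in 6 of the 18 genes, Asns, Pycr1, Chac1, Trib3, Nupr1 and Vldlr, and in 1 ER gene, Herpud1. Of 32851 windows of all genes, 3.97% held them. This share is per window, while members are counted per gene, and a gene can have more than 1 window. The windows below run in the direction of the gene, 5′ to 3′, with the matched letters in capitals and 20 bases on each side. TTGCATCA and TTACATCA are matches on the other strand.
Asns (chr6:7693205-7693252, minus strand): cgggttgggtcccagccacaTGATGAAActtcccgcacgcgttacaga
Pycr1 (chr11:120643824-120643871, minus strand): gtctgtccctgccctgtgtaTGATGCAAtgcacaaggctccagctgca
Chac1 (chr2:119351029-119351076, plus strand): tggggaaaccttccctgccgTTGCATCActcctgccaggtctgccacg
Trib3 (chr2:152344019-152344066, minus strand): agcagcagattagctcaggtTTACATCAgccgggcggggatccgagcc
Nupr1 (chr7:126625553-126625600, minus strand): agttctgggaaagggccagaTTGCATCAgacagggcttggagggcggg
Vldlr (chr19:27216800-27216847, plus strand): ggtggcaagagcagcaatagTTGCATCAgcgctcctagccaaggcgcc
Herpud1 (chr8:94386297-94386344, plus strand): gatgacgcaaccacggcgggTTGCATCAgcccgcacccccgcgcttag

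Of the 5 enzymes that fell, Asns was the 1 gene with these letters in its window, 23 bases before the annotated start. Psat1, Phgdh, Shmt2 and Aldh18a1 had no such letters in any of their 300-base windows, which says nothing of sites elsewhere. Psat1 had more than 1 such window, at different annotated starts. The genes that held the letters had values in both directions. Trib3, Asns and Chac1 had log2 fold changes of -1.50, -1.15 and -0.95, and Nupr1 and Pycr1 had 0.97 and 0.88. Vldlr and Herpud1 lay near 0, at -0.06 and 0.15. The whole Asns window (chr6:7693160-7693459, minus strand, 300 bases) gives the setting of the element, in capitals.
Asns promoter: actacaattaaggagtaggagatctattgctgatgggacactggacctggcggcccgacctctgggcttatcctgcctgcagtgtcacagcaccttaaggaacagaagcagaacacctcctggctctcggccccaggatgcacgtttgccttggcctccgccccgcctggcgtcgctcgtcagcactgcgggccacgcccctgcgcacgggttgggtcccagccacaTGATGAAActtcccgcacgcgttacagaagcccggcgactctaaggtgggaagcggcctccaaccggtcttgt

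Other genes of amino acid supply gave the following counts. Their lists were drawn up by role, but with earlier results of these data known, so the shares are a description only. Of 20 aminoacyl-tRNA synthetases of the cytosol, which load amino acids onto tRNA and include many ATF4 targets, 3 fell (15%, against 4.56% of all genes tested) and 0 rose, namely Gars, Mars and Yars. They were 1.44-fold to 1.59-fold lower, and each passed under 7 of the 10 other settings that kept all 4 libraries. Both G2 lines lay below both G0 lines for 17 of the 20 synthetases (85%), against 28.6% of all genes tested, and the median log2 fold change was -0.29. Mars shares exon positions with Ddit3, and Yars with C77080. Gars, the glycine enzyme, had 2367 and 2533 normalized counts in the G2 lines, against 3464 and 3610 in the G0 lines (adjusted p = 0.0435).

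Of 18 further genes of folate-bound one-carbon units and glycine, 3 fell (16.7%, against 4.56% of all genes tested) and 0 rose. Mthfd1, the cytosolic folate enzyme with several activities, had 1933 and 1776 normalized counts in the G2 lines, against 2740 and 2838 in the G0 lines (adjusted p = 0.0327). Mthfd1l, which makes formate in mitochondria, had 723.1 and 705.7 in the G2 lines, against 1070 and 1311 in the G0 lines (adjusted p = 0.0306). Sfxn1, which carries serine into mitochondria, had 1441 and 1332 in the G2 lines, against 2086 and 2075 in the G0 lines (adjusted p = 0.0334). Each of the 3 was 1.5-fold to 1.67-fold lower with no overlap of the groups. Cytosolic Shmt1 had a log2 fold change of -0.19 and did not pass (adjusted p = 0.439).

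Of 10 further genes of proline and glutamate metabolism, 2 fell (20%, against 4.56% of all genes tested) and 0 rose. Prodh, which breaks proline down, had 229.9 and 254.1 normalized counts in the G2 lines, against 435.0 and 481.5 in the G0 lines (adjusted p = 0.0227). Gls2, a glutaminase, had 52.4 and 29.3 in the G2 lines, against 161.0 and 167.6 in the G0 lines (adjusted p = 0.0138), and shares exon positions with Spryd4. Enzymes of proline synthesis and of proline breakdown were thus both among the genes that fell.

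Of 24 further genes of the ATF4 response, 4 fell (16.7%) and 3 rose (12.5%), against 4.56% and 5.93% of all genes tested. Both G2 lines lay below both G0 lines for 45.8% of the 24 and above for 33.3%, against 28.6% and 29.2% of all genes tested. Slc1a4, a carrier of serine and alanine, had 295.5 and 251.2 normalized counts in the G2 lines, against 670.6 and 675.5 in the G0 lines (adjusted p = 0.0056). Stc2, a secreted glycoprotein, had 489.1 and 670.5 in the G2 lines, against 1297 and 2304 in the G0 lines (adjusted p = 0.0173). Got1 and Slc7a5, chosen after their values were seen, also fell. In the other direction, Cbs, which condenses serine with homocysteine, had 469.0 and 509.3 in the G2 lines, against 217.0 and 198.1 in the G0 lines (adjusted p = 0.00805). Slc7a11, the cystine importer, had 1131 and 701.8 in the G2 lines, against 79.5 and 32.5 in the G0 lines (adjusted p = 0.00254). Sesn3, chosen after its values were seen, rose as well. Carriers of amino acids were thus found in both directions. Cth, which makes cysteine from the product of Cbs, had 67.6 and 50.8 in the G2 lines and 94.3 and 103.6 in the G0 lines, lower in G2 with no overlap where Cbs was higher, and did not pass (adjusted p = 0.162); it too was chosen after its values were seen.

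Among 15 genes of the eIF2 kinases, eIF2 and its exchange factor eIF2B, 1 fell and 0 rose, so that 6.67% fell, near the 4.56% of all genes tested. Eif2s3x, the X-linked gene of the gamma subunit of eIF2, had 4012 and 3981 normalized counts in the G2 lines, against 7608 and 5831 in the G0 lines (adjusted p = 0.0341). Its Y-linked copy Eif2s3y was counted in both G2 lines and in neither G0 line, at the values given above. Of the kinases, Eif2ak4, which senses uncharged tRNA, had a log2 fold change of -0.55 and did not pass (adjusted p = 0.110), and Eif2ak1 and Eif2ak2 had 0.02 and 0.19. Both G2 lines lay below both G0 lines for 11 of the 15 genes (73.3%) and above for 6.67%, against 28.6% and 29.2% of all genes tested.

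**Figure D2:**
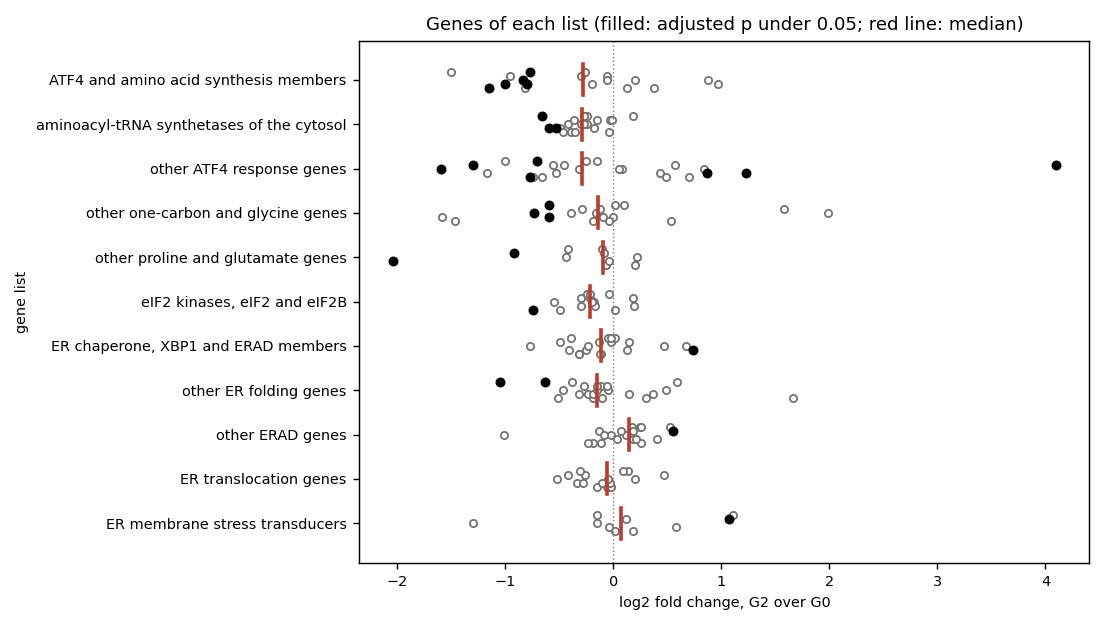
Log2 fold change, G2 over G0 (horizontal axis), of the tested genes of 11 lists (rows); each point is 1 gene, filled where the adjusted p is under 0.05, and the red line is the median. The lists of amino acid supply have medians of -0.29 to -0.09. The 20 ER genes, the further folding genes and the translocation genes have -0.11, -0.15 and -0.06. The further ERAD and stress transducer lists have 0.15 and 0.07.

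Of the 20 ER genes, 1 rose, Ern1, and 0 fell at an adjusted p under 0.05. The share that rose was 5.0%, near the 5.93% of all genes tested. Most of the others lay lower in G2 without passing: 14 of the 20 had a log2 fold change below 0, as did 6843 of all 13981 genes tested. Atf6, Pdia3 and Sel1l, among the 14, lay near 0 and turned sign with total count scaling. The median log2 fold change of the 20 was -0.11, with a range of -0.77 for Sdf2l1 to 0.74 for Ern1. The 20 genes summed to 60155 and 56166 normalized counts in the G2 lines and 66552 and 64751 in the G0 lines. Both G2 lines lay below both G0 lines for 9 of the 20 genes (45.0%) and above for 3 (15.0%), against 28.6% and 29.2% of all genes tested. In the limma fit of all 4 libraries, 6 of the 20 had an unadjusted p under 0.05, against 3743 of all 13981 genes tested. Leaving out any 1 library kept the ratio of the group means, G2 over G0, between 1.48 and 1.9 for Ern1.

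Ern1 encodes IRE1 alpha, the sensor kinase and nuclease found in most cells, and lies on chromosome 11 from 106397620 to 106487796. It had 970.2 and 758.5 normalized counts in the G2 lines, against 505.7 and 518.1 in the G0 lines, and rose 1.69-fold (log2 fold change 0.74, SE 0.17, adjusted p = 0.0391). Ern1 missed the threshold without the filter on low values (adjusted p = 0.0607) and without an intensity trend. Ern2, which encodes the IRE1 beta form of mucus-producing epithelium, had 152.3 and 140.8 in the G2 lines and 93.3 and 119.9 in the G0 lines (adjusted p = 0.283). The goblet cell markers given above differed in both directions, with Muc2 at 3.0 and 2.0 in the G2 lines and 9.8 and 18.3 in the G0 lines and Clca1 higher in G2. The part of goblet cells in the Ern2 level was not tested. In bulk RNA, fewer cells of a type and less RNA per cell cannot be told apart. The other sensors were close between groups: Atf6 had a log2 fold change of -0.02 and Eif2ak3, which encodes PERK, had 0.02.

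Xbp1, the message that IRE1 splices, on chromosome 11 from 5520641 to 5525993, had 1705 and 1764 normalized counts in the G2 lines and 1746 and 1994 in the G0 lines. The groups overlapped, and the log2 fold change was -0.11 with a 95% interval of -0.42 to 0.21. Counts per gene do not separate the spliced from the unspliced form. Dnajb9, an ER co-chaperone and a known target of spliced XBP1, had 514.3 and 496.6 in the G2 lines and 381.0 and 263.1 in the G0 lines. Its log2 fold change of 0.67 did not pass (adjusted p = 0.0994), although the groups did not overlap.

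Calr, Hspa5 and Hsp90b1 were among the most abundant members per length of exon and lay lower in G2 without passing the test. Pdia3 was more abundant than Hspa5 and Hsp90b1, at 3183 against 1615 and 1513 normalized counts per kilobase in the G2 lines, and overlapped between groups. Hspa5, which encodes the chaperone BiP, the standard readout of ER stress, on chromosome 2 from 34772090 to 34776529, had 7574 and 6084 normalized counts in the G2 lines. It had 8610 and 8325 in the G0 lines (log2 fold change -0.32, 95% interval -0.69 to 0.05, adjusted p = 0.241). Hsp90b1, the ER member of the HSP90 family, and Calr, a chaperone of glycoproteins, had log2 fold changes of -0.25 and -0.23. For Hspa5, Hsp90b1 and Calr both G2 lines lay below both G0 lines, while the membrane-bound Canx overlapped between groups, at -0.13.

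The disulfide isomerases Pdia3, Pdia4 and Pdia6 had log2 fold changes of -0.05, -0.12 and -0.41. Pdia6 had 2097 and 2149 normalized counts in the G2 lines, against 2706 and 2926 in the G0 lines (adjusted p = 0.0926). Sdf2l1, a soluble ER protein that works with BiP, had 402.4 and 403.7 in the G2 lines, against 578.3 and 820.8 in the G0 lines. Its adjusted p of 0.0567 was the second smallest of the 20, and it passed under 3 of the 10 other settings that kept all 4 libraries. The 3 include the fit with the replicate number as a second term, which is not known to pair the lines. Creld2 and Manf, both stress-induced proteins of the ER lumen, had log2 fold changes of -0.49 and -0.39 (adjusted p = 0.110 and 0.140). Creld2 had 357.0 and 396.8 in the G2 lines, against 511.6 and 547.5 in the G0 lines. Pdia6, Sdf2l1, Creld2 and Manf thus each had both G2 lines below both G0 lines, and none of the 4 passed by limma. Each had an unadjusted p under 0.05, as did 3743 of the 13981 genes tested. Pdia6 shares exon positions with Atp6v1c2, and Manf with Dcaf1, Rbm15b and 4930524O07Rik, so their reads may be mixed.

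Genes of ER-associated degradation (ERAD), which returns misfolded proteins to the cytosol, had no common direction. Edem1, which selects glycoproteins for disposal, had a log2 fold change of -0.32, and Sel1l and Syvn1, the adaptor and ligase of the main ERAD complex, had -0.02 and 0.13. Herpud1, a membrane component of that complex, overlapped between groups, at 694.9 and 598.2 normalized counts in the G2 lines and 485.1 and 696.8 in the G0 lines.

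**Figure D3:**
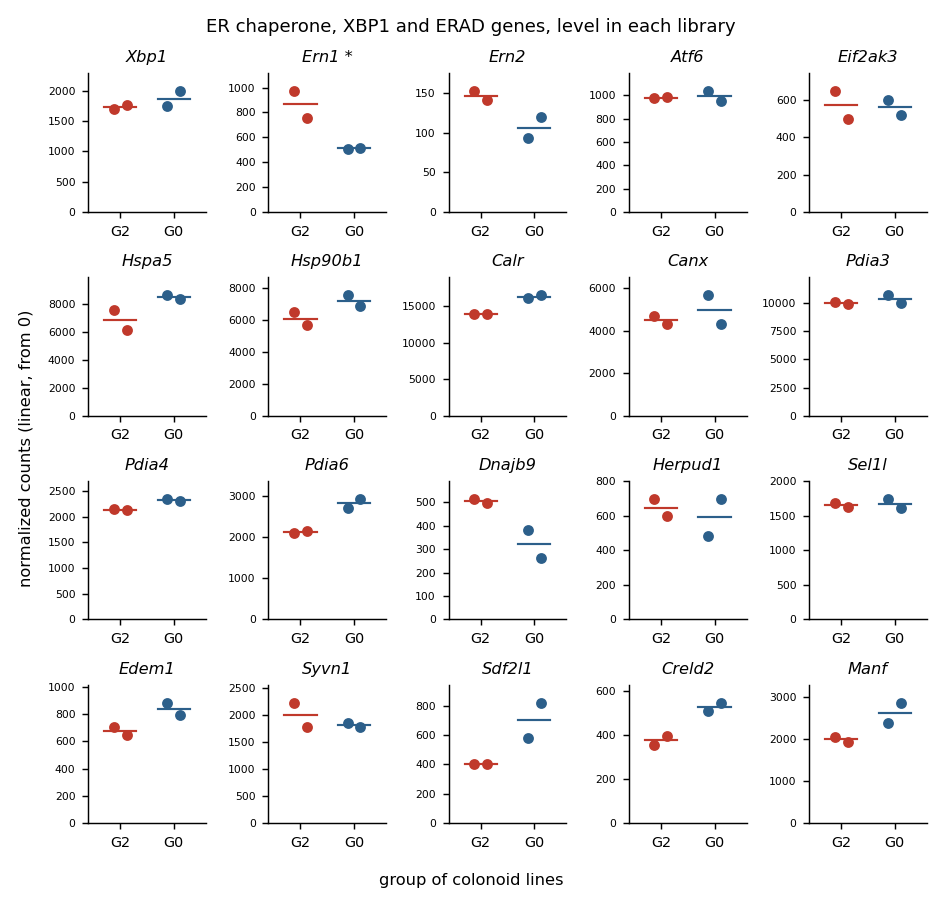
Normalized counts (vertical axis, linear and from 0) of the 20 ER genes in the G2 lines (red, left) and the G0 lines (blue, right); each point is 1 library, the bar is the mean of 2, and an asterisk marks an adjusted p under 0.05. Ern1 alone carries an asterisk, and Calr has the highest counts, at 13920 and 13883 in the G2 lines and 16127 and 16522 in the G0 lines.

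Other lists of ER genes, drawn up by role with earlier results of these data known, had 0 to 2 calls each. Of 22 further folding genes, 2 fell (9.09%, against 4.56% of all genes tested) and 0 rose: Ero1l, the oxidase that recharges disulfide isomerases, and Mogs, the glucosidase that starts glycan trimming. Ero1l had 988.3 and 998.0 normalized counts in the G2 lines, against 1575 and 2672 in the G0 lines (adjusted p = 0.0388). Of 20 further ERAD genes, 1 rose (5%, against 5.93% of all genes tested) and 0 fell: Os9, a lectin of the Sel1l complex, had 3777 and 4039 in the G2 lines, against 2552 and 2807 in the G0 lines (adjusted p = 0.0444). Of 17 genes of protein entry into the ER, limma called 0. An unadjusted p under 0.05 was found for 3 of the 17, against 3743 of the 13981 genes tested. Of 10 tested genes listed as membrane-bound stress transducers other than ATF6, 1 rose (10%, against 5.93% of all genes tested) and 0 fell. It was Creb3l2, a factor cleaved like ATF6 that serves the secretory pathway, at 2205 and 2320 in the G2 lines, against 1166 and 996.5 in the G0 lines (adjusted p = 0.00573). Besides Atf6b and the Creb3 family, that list held Mbtps1, Mbtps2, Wfs1, Bfar and Tmbim6, so the share is not of transducers alone. Both G2 lines lay above both G0 lines for 35% of the further ERAD list and 50% of the transducer list, and below for 20% and 10%. For the folding and entry lists, 22.7% and 5.88% lay above, and 31.8% and 41.2% below. Over all genes tested, 29.2% lay above and 28.6% below.

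Several ER genes held the binding site known for this response, the ER stress response element, written CCAAT and CCACG with 9 free bases between them. It is bound by the factor NF-Y together with ATF6 or XBP1. Within the same 300-base windows it was found in 7 of the 17 ER genes with a window, and in 0 of the 18 ATF4 and amino acid synthesis genes. Of all 32851 windows, 0.119% held it, where members are counted per gene and this share per window. A related element, ATTGG and CCACG with 1 free base between them, was found in Herpud1 and in 0.0365% of all windows, and the XBP1-type letters TGACGTGG were found in none of the members and in 0.676% of all windows. The windows are shown as above, with matches on the other strand beginning CGTGG.
Hspa5 (chr2:34772005-34772063, plus strand): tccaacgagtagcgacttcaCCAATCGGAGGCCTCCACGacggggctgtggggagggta
Hsp90b1 (chr10:86705618-86705676, minus strand): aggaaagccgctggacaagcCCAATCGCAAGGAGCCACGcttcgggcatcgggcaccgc
Hsp90b1 (chr10:86705513-86705571, minus strand): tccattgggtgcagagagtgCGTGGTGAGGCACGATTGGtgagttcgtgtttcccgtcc
Calr (chr8:84847055-84847113, minus strand): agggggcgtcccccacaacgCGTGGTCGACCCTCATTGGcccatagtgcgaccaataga
Canx (chr11:50325780-50325838, minus strand): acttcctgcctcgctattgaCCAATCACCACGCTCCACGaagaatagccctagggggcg
Pdia6 (chr12:17266471-17266529, plus strand): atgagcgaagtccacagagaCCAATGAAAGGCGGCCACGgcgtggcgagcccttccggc
Creld2 (chr15:88819500-88819558, plus strand): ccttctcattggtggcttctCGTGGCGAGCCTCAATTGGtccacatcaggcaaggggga
Syvn1 (chr19:6046512-6046570, plus strand): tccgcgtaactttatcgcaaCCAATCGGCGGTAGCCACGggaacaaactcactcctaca
Herpud1 (chr8:94386357-94386407, plus strand): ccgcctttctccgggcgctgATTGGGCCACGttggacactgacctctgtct

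None of the 7 genes with the full element passed by limma. Pdia6 and Creld2 had an unadjusted p under 0.05, as did 3743 of the 13981 genes tested. Their log2 fold changes ran from -0.49 for Creld2 and -0.41 for Pdia6 over -0.32 for Hspa5, -0.25 for Hsp90b1, -0.23 for Calr and -0.13 for Canx to 0.13 for Syvn1. Hsp90b1 held the element at 2 places in opposite orientation. The Ern1 window, of the 1 ER gene that rose, held none of the 4 motifs. Windows for Atf6, Ern2 and Manf were not used here.

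**Figure D4:**
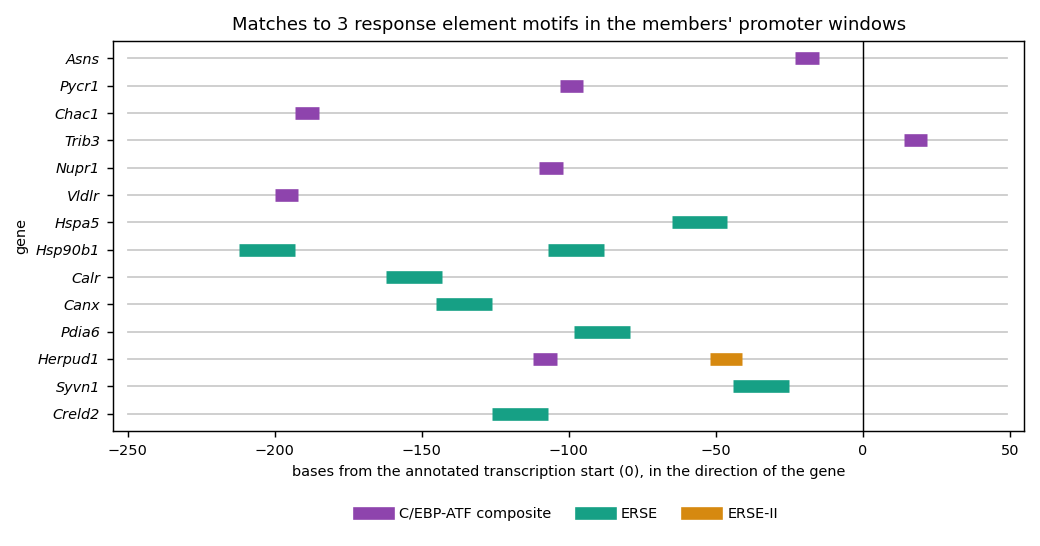
Position of motif matches (coloured blocks) in bases from the annotated transcription start at 0 (horizontal axis) for the 14 members with a match (rows); the grey line is the 300-base window. ERSE blocks lie between 212 and 44 bases before the start in 7 ER genes, and the C/EBP-ATF block of Asns lies 23 bases before it.

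Levels can be compared between genes only per length, here as normalized counts per kilobase of exon. On that scale the 38 genes spanned 16.6 for Trib3 to 4827 for Calr in the G2 lines, and 29.3 for Ddit3 to 5668 for Calr in the G0 lines. In serine synthesis, Phgdh stood at 713.2 and Psat1 at 360.7 per kilobase in the G2 lines, and at 1262 and 722.1 in the G0 lines. Psph was far lower than both, at 38 in the G2 lines and 48 in the G0 lines. Among the sensors, Ern1 stood at 105.8, Atf6 at 106.1 and Eif2ak3 at 95.2 per kilobase in the G2 lines, against 62.6, 107.8 and 93.2 in the G0 lines. Ern1 was thus the lowest of these 3 sensors in the G0 lines and level with Atf6 in the G2 lines. No test was run between genes, and exon length here is the union of all annotated exons, which understates genes with long rare exons.

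**Figure D5:**
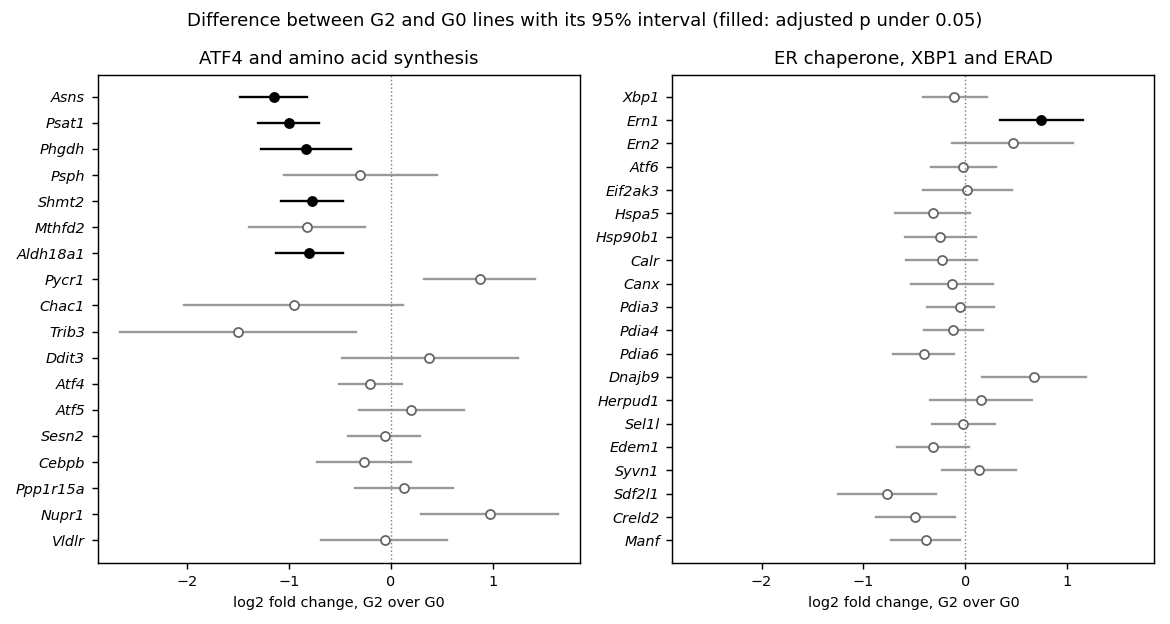
Log2 fold change, G2 over G0 (horizontal axis), of each member with its 95% interval from the limma fit (bars); filled points have an adjusted p under 0.05. The filled points on the left are Asns, Psat1, Phgdh, Shmt2 and Aldh18a1, at -1.15 to -0.77, and the filled point on the right is Ern1, at 0.74.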

How the data were processed

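The authors deposited 1 table of 16857 genes by 4 libraries in log2 values, on a variance-stabilized scale with a lowest value of 6.508 in every library. Per the submitters' processing notes, the tools were DESeq2 1.32.0, R 3.5.2, HISAT2 2.1.0, StringTie 2.1.1 and bcl2fastq 2.20.0, and the build was mm10. No source used here gives the annotation, strand setting or filters.

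The scale was inverted with that lowest value as its only constant, which gave normalized counts. With a scale factor per library, 100% of the values came out whole (tolerance 0.001); they may be rounded estimates. The test was limma 3.58.1 in R 4.3.3, run on log2(normalized count + 1) with a trend on intensity, two-sided, over 13981 genes whose mean reached 1, threshold 0.05, group as the only term. This log scale understates changes of low genes. The fit was also run on simulated counts with 1 spread shared by all genes. Real genes differ in spread, so that run does not vouch for the calls given here. With 2 lines a group, an exact permutation test cannot go below p = 0.333, so none is given. The members and lists were chosen with earlier results of these data known. Every member is named; values per library are given for members past the threshold, the 4 with the smallest p among the rest of each class, and others singled out afterwards. From other lists up to 4 passing genes are named by p. A table of protein sequences was not used, so the planned look at protein ends was not made. Gene positions are from RefSeq GRCm38.p6, and exon lengths and overlaps from GENCODE M21. Among members not flagged above, Cebpb, Ppp1r15a, Eif2ak3, Hsp90b1, Pdia3, Pdia4, Dnajb9 and Syvn1 also share exon positions with other annotated genes. The 4 motifs and 14 alternative settings are given with the results and below.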

Additional observations from a re-analysis of the deposited data

How the results depend on the processing

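Under the 10 settings that kept all 4 libraries, Asns, Psat1, Shmt2 and Aldh18a1 passed in 9, Ern1 in 8 and Phgdh in 7. The 10 include the replicate block, described below. From the other lists, cell type markers aside, Gars, Mars, Yars, Slc7a5, Eif2s3x, Ero1l and Os9 passed in 7 and Sesn3 in 6. The rest of the passing genes of those lists did so in 8 to 10. Without an intensity trend limma called 623 genes in place of 1467. Among them were 0 of the 18 ATF4 and amino acid synthesis genes and 0 of the 20 ER genes. At an unadjusted p under 0.05 were 7 of the 18 and 4 of the 20, against 3230 of all 13981 genes tested. The smallest adjusted p of the 18 was 0.0537. With the replicate block, the replicate number as a second term, limma called 3503 genes, 7 lower and 2 higher among the 18, and 4 lower and 2 higher among the 20. The numbers are not known to pair the lines (correlation of deviations 0.109 across genes). Without a filter, 0 ER genes were higher. A mean of at least 10, robust eBayes or total count scaling gave 1 higher among the 18, Pycr1, and the first 2 of these gave 1 lower among the 20, Sdf2l1. With 1 library left out, a lone line is assumed to vary like the other group, and 0 to 2 genes passed in all, with 0 to 0 in either class and direction. Total count scaling moved the median of all genes to 0.079 and turned the sign of 5 values near 0: Sesn2 to 0.0032, Vldlr to 0.0012, Atf6 to 0.04, Pdia3 to 0.01 and Sel1l to 0.05. With 1 library left out, signs turned within these ranges: Psph -0.69 to 0.09, Sesn2 -0.22 to 0.09, Cebpb -0.52 to 0.0012, Ppp1r15a -0.12 to 0.38, Vldlr -0.42 to 0.30, Atf6 -0.08 to 0.04, Eif2ak3 -0.16 to 0.21, Canx -0.33 to 0.07, Herpud1 -0.11 to 0.41, Sel1l -0.08 to 0.04 and Syvn1 -0.03 to 0.30. The causes were not tested.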
